A study of Homo sapiens with 5 samples.

Results

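Chromosomes 4 and 18 were described from all their bins in 3 Hi-C contact matrices of HL60, an established cell line from a human promyelocytic leukemia. Their 540 bins of 500 kb, 383 on chromosome 4 and 157 on chromosome 18, are part of 6083 bins on the autosomes and chromosome X, and positions refer to hg19. One matrix holds 1 library of cells given retinoic acid (ATRA), an inducer of granulocytic differentiation in this line. A second pools 2 libraries of cells given TPA, a phorbol ester that induces monocytic and macrophage features. The matrix of untreated cells also pools 2 libraries. The labels used here give no dose or duration of either treatment, and no other genotype or agent, and since Hi-C reads no RNA, the state of differentiation was not checked. With 1 matrix per condition there was no spread between replicates, so no test was run, library and treatment effects cannot be told apart, and all 95% intervals cover counting error only.

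Hi-C crosslinks chromatin, cuts it, ligates ends that lie close together and counts the joined pairs as contacts, so that neighbouring sequence on the same DNA molecule gives many contacts. A rearranged chromosome therefore shows a block of frequent contacts between segments that the reference map places on different chromosomes. Gene-poor chromosomes, of which human chromosome 18 is the textbook case, usually lie near the nuclear periphery, and gene-rich chromosomes such as 19 lie further inside. Within a chromosome, active A-type segments contact one another more often than they contact inactive B-type segments. HL60 is a leukemia line with a rearranged karyotype, so contact totals can vary with DNA copy number as well as with folding.

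The label gene-poor was checked against a RefSeq gene table. Counted per Mb of the binned chromosomes, chromosome 13 held 2.93 protein-coding genes, chromosome 18 held 3.44 and chromosome 4 held 4.02, the lowest of the 23 chromosomes. These lengths count all bins, also those with too few contacts to be used. Chromosome 21 kept 70 bins of its 48.5 Mb and chromosome 22 kept 69 of 103 bins, so this density is low for their part with contacts. Chromosome X held 5.47 and ranked 10. The gene-rich partners held 8.76 on chromosome 22, 14.3 on chromosome 17 and 24.4 on chromosome 19, ranks 19, 22 and 23. The matrices held 9632300 contacts in ATRA, 10423501 in TPA and 10628045 in untreated cells. Contacts summed over the bins of chromosome 4 came to 1176215, 1233148 and 1207314, in the same order of conditions. Over the bins of chromosome 18 they came to 475653, 503819 and 495384. These sums count a contact between different bins of the same chromosome once for each bin. Of the bins, 376 on chromosome 4 and 149 on chromosome 18 passed a minimum of 0.2 times the median coverage in each matrix, and those that failed lay mostly at the centromere gaps, from 50.0 to 52.5 Mb and from 15.5 to 18.5 Mb.

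The end of the long arm of chromosome 4 (4q) was joined to the long arm of chromosome 18. A bin pair between chromosomes counted as joined when it held at least 20 contacts in the summed matrix and at least 10 times the number expected from the coverage of its bins. Of 91 pairs between chromosomes 4 and 18 with enough contacts, 77 were joined, against a background of 9.49% over all chromosome pairs (730 of 7692). Of 335 tested pairs between chromosome 4 or 18 and any other chromosome, 0 were joined, and the highest reached 5.10 times expected. The 77 pairs formed 11 clusters, of which 1 had more than 3 pairs. That cluster held 61 bin pairs between 183.5 and 191.0 Mb of chromosome 4 and between 43.0 and 48.5 Mb of chromosome 18. It held 616 contacts in ATRA, 852 in TPA and 890 in untreated cells. These were 20.6 (18.97 to 22.3), 26.5 (24.7 to 28.3) and 29.5 (27.6 to 31.6) times expected. The ATRA interval lay below both others, and those of TPA and untreated cells overlapped. This expectation comes from contacts between chromosomes, and in ATRA the share within chromosomes was lower on all 23 chromosomes (median difference -5.38 points). Against contacts at the same distance within other autosomes, described below, 4q stood at 0.593 in ATRA and 0.649 in untreated cells under 5 Mb, with overlapping intervals. Between 5 and 20 Mb it stood at 1.10 and 1.02. Since the cluster was chosen for its contacts, these values describe it and test nothing.

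The frequent contacts met at a corner of the map. The corner that best separated the frequent contacts lay at 190.5 Mb of chromosome 4, before the last 500 kb bin used there, and at 45.0 Mb of chromosome 18. The 3 bins of chromosome 4 between 188.5 and 190.0 Mb held 1 to 6 contacts each with the 5 Mb of chromosome 18 before its junction and 59 to 118 with the 5 Mb after it, over the 3 matrices. The last bin of 4q, 190.5 to 191.0 Mb, showed the opposite sides, with 138 contacts before the junction of chromosome 18 in ATRA, 208 in TPA and 157 in untreated cells, against 6, 13 and 11 after it. The bin between them, 190.0 to 190.5 Mb, contacted both sides, with 73, 97 and 83 contacts before the junction and 38, 81 and 70 after it, so that the change began before 190.5 Mb. The break on chromosome 4 was therefore placed no more finely than this pair of bins. On chromosome 18 the change lay between neighbouring bins: 44.5 to 45.0 Mb held 0, 2 and 4 contacts with the 9 bins of chromosome 4 before 190.0 Mb and 40, 64 and 48 with the 4q tip, and 45.0 to 45.5 Mb held 103, 98 and 155 against 4, 5 and 7. These counts leave out the mixed bin from 190.0 to 190.5 Mb, which held 28, 32 and 32 contacts with the first of these bins and 14, 32 and 23 with the second.

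Both joined quadrants around the corner were far above expectation and the others much less so. The last 5 Mb of chromosome 4 before the junction met the first 5 Mb of chromosome 18 after it at 16.1 (14.9 to 17.4) times the expected number in ATRA, 20.7 (19.3 to 22.1) in TPA and 21.4 (20.0 to 22.9) in untreated cells. The 4q tip met the 5 Mb of chromosome 18 before the junction at 14.3 (11.98 to 16.8), 21.01 (18.3 to 24.1) and 18.5 (15.7 to 21.6) times the expected number. Chromosome 4 before the junction with chromosome 18 before it reached 1.64 (1.34 to 1.98), 2.23 (1.88 to 2.62) and 2.27 (1.89 to 2.69), on 107, 143 and 127 contacts of which the mixed bin held 73, 97 and 83. Without that bin it stood at 0.586 (0.406 to 0.819), 0.810 (0.593 to 1.08) and 0.886 (0.644 to 1.19). The tip with chromosome 18 after the junction reached 0.998 (0.366 to 2.17), 2.02 (1.08 to 3.46) and 1.85 (0.924 to 3.31) on 6, 13 and 11 contacts. Apart from the mixed bin, each side of chromosome 4 thus met the opposite side of chromosome 18 more often in every matrix. The tip kept fewer contacts with its own chromosome: it met the 5 Mb of chromosome 4 before it at 0.504, 0.490 and 0.510 of the number expected at that distance. That was the lowest of 23 long-arm ends in each matrix, where the medians were 1.87 in ATRA, 1.53 in TPA and 1.53 in untreated cells.

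**Figure D1:**
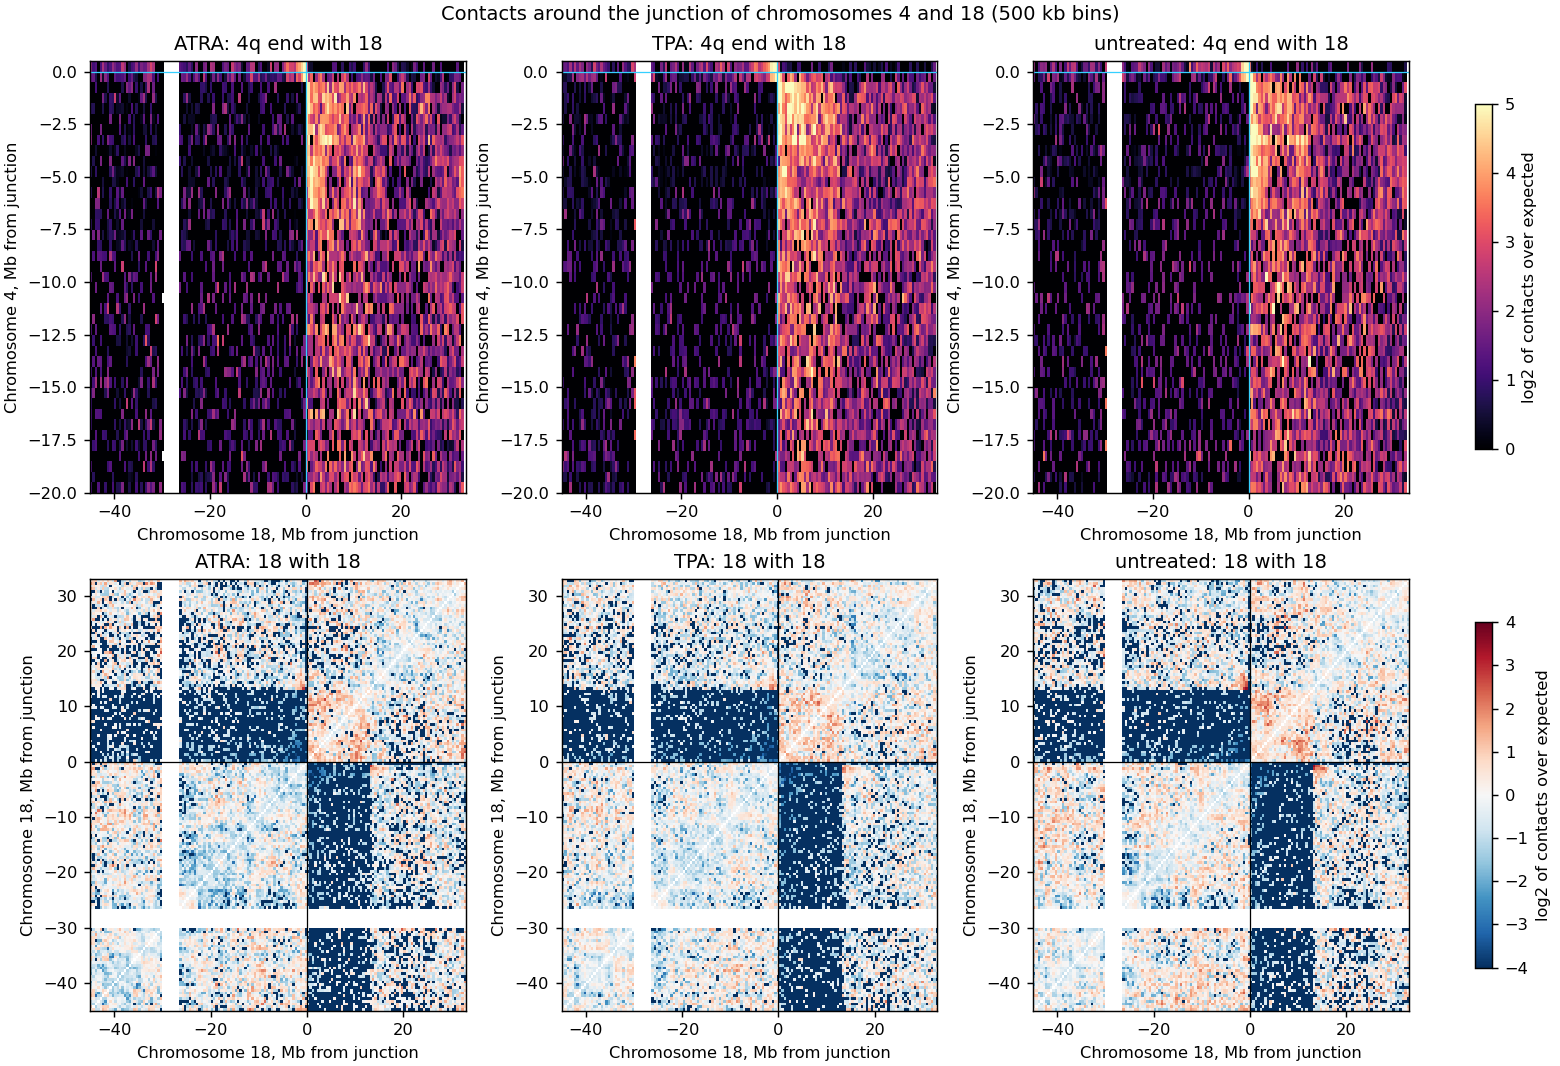
Contacts over expected (log2, colour) around the junction of chromosomes 4 and 18 in 500 kb bins, for ATRA, TPA and untreated cells from left to right, with positions in Mb from the junction. The upper maps set the end of 4q (vertical axis) against chromosome 18 (horizontal axis), where contacts are frequent to the right of the junction, and the lower maps set chromosome 18 against itself, where a band of 13 Mb after the junction has few contacts with the part before it.

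The 13 Mb of chromosome 18 after the junction, from 45.0 to 58.0 Mb, made few contacts with the rest of the same chromosome before the junction. These 26 bins held 607 contacts with chromosome 18 before the junction in ATRA, 501 in TPA and 510 in untreated cells. That was 0.138 (0.127 to 0.150), 0.0939 (0.0859 to 0.103) and 0.105 (0.0963 to 0.115) of the number expected from distance, and 0.829, 0.701 and 0.757 of the number expected between different chromosomes. The block was set by these contacts, as the bins after the junction at under 0.3 of expected in the summed matrix, so its low level and its edges describe it and test nothing. The bin from 44.5 to 45.0 Mb met the rest of chromosome 18 before the junction at 0.827, 0.865 and 0.932 of expected, the next bin at 0.160, 0.147 and 0.148, the bin from 57.5 to 58.0 Mb at 0.142, 0.105 and 0.0952, and the bin after that at 0.734, 0.766 and 1.05.

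Toward the end of the chromosome the block was continuous. With chromosome 18 past 58.0 Mb it made 1.05, 1.04 and 1.08 times the contacts expected from distance in ATRA, TPA and untreated cells. The parts of chromosome 18 on either side of the block met each other at 0.812 (0.792 to 0.833), 0.840 (0.821 to 0.859) and 0.922 (0.901 to 0.944) of expected, which was 3.18, 3.96 and 4.25 times the level between chromosomes. Close to the block's edges these outer parts met more often than their distance on the map gives. The last 3 bins before the junction and the first 3 bins past the block held 75, 74 and 126 contacts, 2.84 (2.23 to 3.56), 2.30 (1.80 to 2.88) and 4.701 (3.92 to 5.60) times expected. The 2 bins directly at the edges, 1 on each side, held 0 contacts with each other in each matrix, where 1.34, 1.69 and 1.44 were expected. With the 13 Mb taken out of the distance, pairs of bins up to 5 Mb apart held 0.448, 0.423 and 0.583 of the expected contacts, against 1.61, 1.56 and 2.54 at the map distance. Pairs farther apart held 0.708 to 0.929 of expected at the map distance over the 3 matrices. The excess close to the block was lower in both treated matrices than in untreated cells, with intervals that did not overlap.

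Coverage of the block was low as well. Its median bin held 0.586 of the genome median in ATRA, 0.562 in TPA and 0.597 in untreated cells, against 1.06, 1.04 and 1.04 before the junction and 0.983, 1.01 and 0.960 past the block. Counting only contacts between chromosomes, the block stood at 0.669, 0.649 and 0.659, against 1.17, 1.18 and 1.14 before the junction. These levels include contacts with chromosome 4, which are frequent in the block. The part of 4q from 10 to 50 Mb before the junction held 3026, 2942 and 3079 of them. With chromosomes other than 4 the block held 32123, 31873 and 30916 contacts. The numbers expected from distance use this same coverage between chromosomes. DNA copy number was not measured here, and its part in these levels was not tested.

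Between 5 and 50 Mb, contacts of 4q with the block were about as frequent as contacts at the same distance within one chromosome, and from 100 Mb on they were fewer. Distances were counted from the 4q bin to its junction and on from the junction of chromosome 18. Expected values came from pairs at the same distance on the other autosomes of the same matrix. Between 5 and 20 Mb the pairs of 4q with the block reached 1.10 (1.05 to 1.15) times that number in ATRA, 1.03 (0.982 to 1.07) in TPA and 1.02 (0.971 to 1.07) in untreated cells. Between 20 and 50 Mb they reached 1.22, 0.971 and 1.10. At under 5 Mb they were lower, at 0.593, 0.697 and 0.649. Between 50 and 100 Mb the value was 1.08 (1.03 to 1.13) in ATRA, 0.739 (0.702 to 0.777) in TPA and 0.987 (0.942 to 1.03) in untreated cells. Between 100 and 200 Mb it was 0.728 (0.681 to 0.778), 0.543 (0.505 to 0.583) and 0.750 (0.703 to 0.799). TPA was lower than untreated cells in both of these classes, with intervals that did not overlap.

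Past the block, contacts of 4q with the end of chromosome 18 ranged from 0.479 to 0.892 of the number found at those distances within a chromosome, highest in ATRA at 50 to 100 Mb. The 4q tip with chromosome 18 before the junction ranged from 0.307 to 0.566. Relative to the level between chromosomes, the short arm of chromosome 4 was near 1 with each of the 3 parts of chromosome 18, from 1.02 to 1.21 over the 3 matrices. The last 10 Mb of 4q before the junction met the block at 10.2, 12.8 and 11.8 times that level in ATRA, TPA and untreated cells, the part past it at 3.88, 4.45 and 4.33 times, and the part before it at 0.951, 0.919 and 0.941 times. Frequent contacts of 4q with chromosome 18 thus lay on 1 side of the junction. The tip showed the reverse, with 4.04, 5.41 and 5.21 times that level before the junction, against 1.08, 1.25 and 1.22 in the block.

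**Figure D2:**
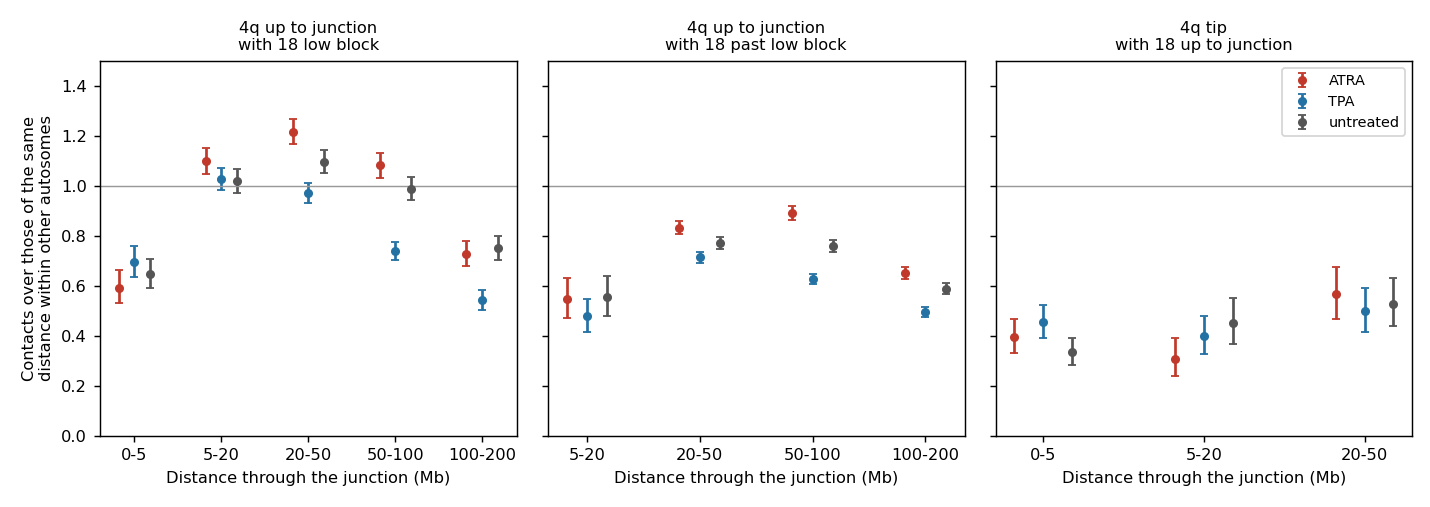
Contacts between chromosomes 4 and 18 divided by those of pairs at the same distance within other autosomes (vertical axis), by distance through the junction in Mb (horizontal axis), with exact Poisson 95% intervals. Points for 4q with the low block of chromosome 18 lie close to 1 between 5 and 50 Mb, from 0.971 to 1.22, and the 4q tip with chromosome 18 before the junction stays at 0.307 to 0.566.

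Along both chromosomes, coverage fell into 7 segments, 3 on chromosome 4 and 4 on chromosome 18. Levels are medians over bins relative to the genome median. The first 9 Mb of chromosome 4 stood at 1.28 in ATRA, 1.40 in TPA and 1.51 in untreated cells. From 9 to 182 Mb the level was 0.912, 0.877 and 0.853, and from 182 to 191 Mb it was 1.25, 1.22 and 1.16. Both ends of chromosome 4 were therefore above its middle in each matrix. On chromosome 18 the level was 1.05, 1.03 and 1.01 up to 46.5 Mb, 0.570, 0.551 and 0.561 from 46.5 to 58.5 Mb, 0.860, 0.878 and 0.837 from 58.5 to 71.5 Mb, and 1.35, 1.39 and 1.44 from 71.5 to 78 Mb. The low segment, from 46.5 Mb, began after the junction at 45.0 Mb and ended close to the block's end at 58.0 Mb, and it was the lowest of the 7 in every matrix.

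Among the 7 segments, differences between conditions were largest at the start of chromosome 4. Against untreated cells its first 9 Mb were 0.31 lower in ATRA and 0.13 lower in TPA on the log2 scale, as medians of the differences of single bins. The other 2 segments of chromosome 4 were higher in both treatments, the middle by 0.07 in ATRA and 0.05 in TPA and the end by 0.10 and 0.09. Over the whole of chromosome 4 the median difference was 0.07 in ATRA, with 296 of 376 bins higher, and 0.05 in TPA, with 266 bins higher. Of 23 chromosomes this was the highest in both treatments, followed by chromosome 13. Lower coverage was not particular to the start of chromosome 4. The medians of whole gene-rich chromosomes 19, 22 and 17 were -0.43, -0.27 and -0.21 in ATRA and -0.16, -0.13 and -0.12 in TPA. Chromosome 18 was 0.04 and 0.02 higher, ranks 7 and 5, and its low segment differed by 0.02 in ATRA and -0.02 in TPA. Its end from 71.5 to 78 Mb was 0.05 lower in ATRA and 0.03 lower in TPA. The start of chromosome 4 and the end of chromosome 18, the best covered segments in untreated cells, were thus lower in both treatments.

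**Figure D3:**
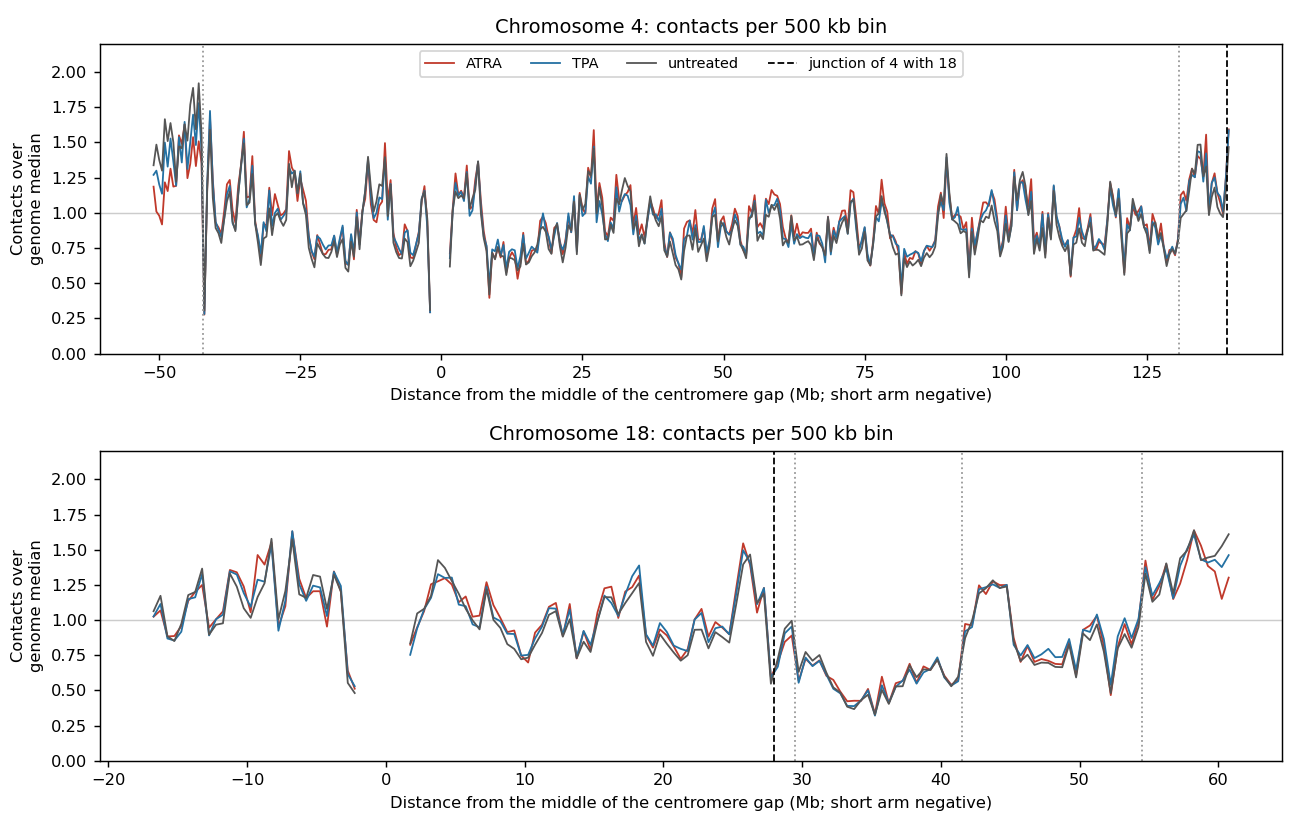
Contacts per 500 kb bin over the genome median (vertical axis) along chromosomes 4 (top) and 18 (bottom), by distance from the middle of the centromere gap in Mb, with lines for ATRA, TPA and untreated cells. Dotted lines mark segment edges and dashed lines the junction, to the right of which the low segment of chromosome 18 holds 0.551 to 0.570 of the median.

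Compartments were read from the leading pattern (first eigenvector) of contacts within each chromosome, in SD of the chromosome, with the side that contacts chromosome 19 more called A. On chromosome 4, 137 of 376 bins (36.4%) were A in ATRA, 138 (36.7%) in TPA and 141 (37.5%) in untreated cells. Across the bins, which share their libraries, scores in ATRA and in untreated cells had a correlation of 0.886, and scores in TPA and in untreated cells one of 0.818. Runs of A bins at least 2 Mb long in all 3 matrices numbered 12 on chromosome 4 and covered 31 Mb, none longer than 3.5 Mb. The run from 0.5 to 4.0 Mb had mean scores of 1.86 in ATRA, 2.02 in TPA and 1.93 in untreated cells, and the run from 37.5 to 41.0 Mb had 2.02, 2.32 and 1.80. The A-type part of chromosome 4 was thus split into short stretches over both arms, including 184.0 to 186.0 Mb near the junction, at 1.67, 1.27 and 1.58.

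On chromosome 18 the leading pattern within the chromosome followed the block and not the compartments. Its scores in the block had medians of -1.82 in ATRA, -1.83 in TPA and -1.87 in untreated cells, against 0.76, 0.83 and 0.80 on the long arm before the junction. The score correlated at 0.132 over bins with the score from contacts with other chromosomes, which include those with 4q through the junction. Chromosome 4 gave 0.801. With the block left out, an alternative chosen after the data were seen, this correlation was 0.852. Of the 123 remaining bins 52 (42.3%) were then A in ATRA, 50 (40.7%) in TPA and 52 (42.3%) in untreated cells. On the whole of chromosome 18 the shares of 59.1%, 57.0% and 61.1% above 0 therefore count bins outside the block and are no A shares. A runs of at least 2 Mb lay at 18.5 to 22 Mb, 59.5 to 61.5 Mb and 76.0 to 78.0 Mb.

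Few bins changed compartment. A bin was called B in a treatment and A in untreated cells, or the reverse, only where both scores were more than 0.5 SD away from 0. In ATRA 1 bin of chromosome 4 had become B, against a background of 0.480% over 5630 bins, and 0 had become A, against 0.107%. In TPA 3 bins of chromosome 4 had become B, against 1.60%, and 1 had become A, against 0.337%. On chromosome 18 there were 0 in either treatment. With the block left out 1 bin of it had become B in ATRA, and in TPA 2 had become B and 1 had become A. These counts were too small to set apart from the background shares. Under the score from contacts with other chromosomes, no bin of either chromosome switched.

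At 5.5 to 6.0 Mb of chromosome 4 both treatments gave B. Its score was -0.58 in ATRA, -1.40 in TPA and 0.57 in untreated cells, and its 4 nearest bins averaged 0.24, -0.06 and 0.84. Of its contacts with other chromosomes 6.09% (5.35 to 6.91) were with chromosomes 17, 19 and 22 in ATRA, 6.60% (5.81 to 7.46) in TPA and 8.14% (7.27 to 9.08) in untreated cells. The ATRA share lay below that of untreated cells with no overlap of intervals, and the TPA interval overlapped it. A lower share in ATRA was not particular to this bin. Over the whole short arm of chromosome 4, as given below, the share was 6.67% in ATRA, 8.02% in TPA and 7.43% in untreated cells. The other switches in TPA were at 77.5 to 78.0 Mb, which scored 0.16 in ATRA, -0.87 in TPA and 1.50 in untreated cells, at 186.0 to 186.5 Mb, with -0.15, -0.69 and 0.81, and at 117.5 to 118.0 Mb, which was higher in TPA, with -0.32, 0.58 and -0.58. At these 3 bins the shares of contacts with chromosomes 17, 19 and 22 had intervals that overlapped between TPA and untreated cells. On chromosome 18 without the block, 73.0 to 73.5 Mb was B in both treatments, with -0.73 in ATRA, -0.52 in TPA and 0.93 in untreated cells. In TPA 8.5 to 9.0 Mb was B, at -1.07 against 0.65 in untreated cells, and 42.0 to 42.5 Mb was A, at 0.67 against -0.66.

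Separation of the compartments was lowest in TPA, with no interval computed. It was measured as contacts among like bins over contacts between unlike bins, for the top and bottom 20% of scores at least 2 Mb apart. On chromosome 4 it was 2.10 in ATRA, 1.81 in TPA and 2.08 in untreated cells, and on chromosome 18 without the block 2.74, 2.01 and 2.55. By contacts with other chromosomes, 51 bins of chromosome 4 (13.6%) were above 0 in ATRA, 90 (23.9%) in TPA and 49 (13.03%) in untreated cells. Most of the difference in TPA lay on 4q up to the junction, where 28 bins of 276 were above 0 in ATRA, 62 in TPA and 25 in untreated cells. Chromosome 18 had 25, 28 and 27 such bins of 149. Over all 5630 bins the shares were 31.0% in ATRA, 34.0% in TPA and 32.5% in untreated cells, and in TPA 14 of 23 chromosomes had more such bins than in untreated cells and 7 had fewer. Chromosome 4 had the largest gain in share in TPA, 10.9 points, and chromosome 18 ranked 12. Other chromosomes came close to chromosome 4: chromosome 13 went from 20.7% in untreated cells to 30.1% in TPA and chromosome 7 from 20.6% to 29.9%. Gene-rich chromosome 19 fell from 86.7% to 65.5% and chromosome 22 from 98.6% to 75.4%. Since this score is scaled over all bins, a bin above 0 is so relative to the others. Contacts of 4q with chromosome 18 through the junction enter it as contacts between chromosomes, capped at 4 times the mean. Their part in the difference on 4q was not tested.

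**Figure D4:**
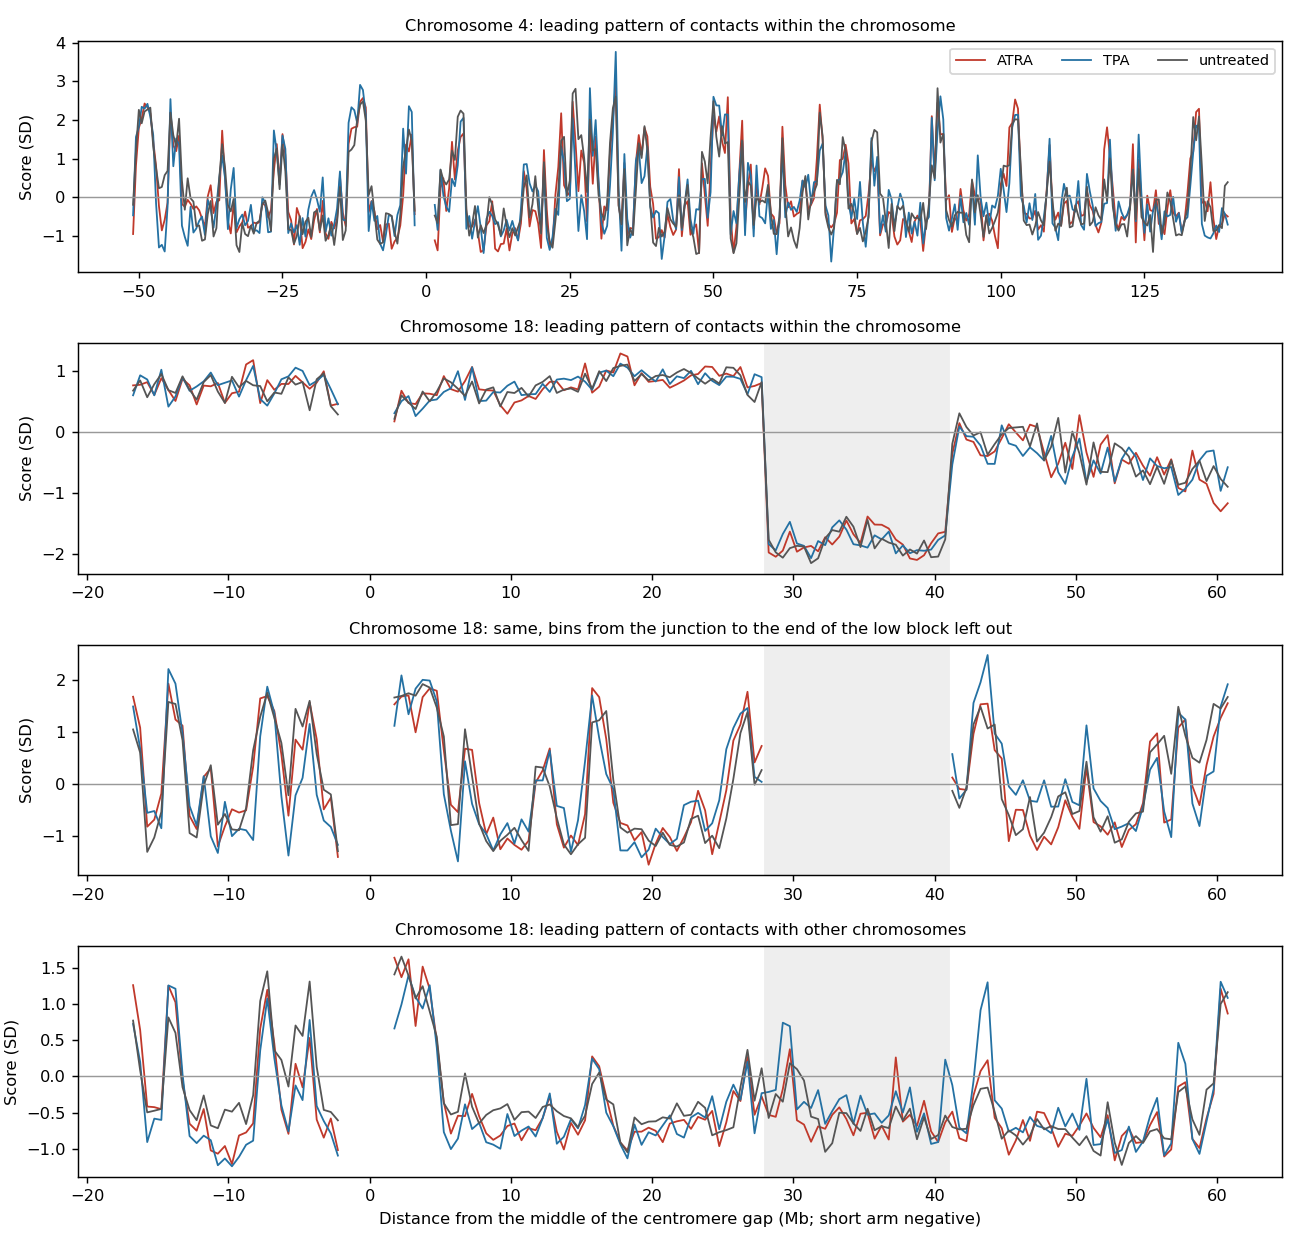
Compartment scores (SD, vertical axis) along chromosome 4 and chromosome 18 for ATRA, TPA and untreated cells, by distance from the middle of the centromere gap in Mb. Shading marks the low block, which sets the leading pattern within chromosome 18 (second panel, block medians of -1.82, -1.83 and -1.87) and is left out in the third panel.

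Relative to the expected number, 4 and 18 met each other more often than either met any other chromosome. Expected values were fitted to the contacts that each chromosome makes with all others. The pair stood at 1.45 times expected in ATRA, 1.42 in TPA and 1.52 in untreated cells, rank 1 of 22 partners for both. Against untreated cells this was 0.07 lower in ATRA (0.05 to 0.09 lower) and 0.10 lower in TPA (0.08 to 0.12 lower) on the log2 scale, but with an expectation from chromosome lengths the ATRA change turned to 0.06 and that in TPA was -0.0012. Without the bins of joined clusters the pair stood at 1.26, 1.21 and 1.30. Contacts through the junction at longer distance mostly remain in these values, so they do not separate the pair from its join. The part of 4q from 10 to 50 Mb before the junction met chromosome 18 past the block at 3.17, 2.87 and 3.32 times the level between chromosomes.

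With the gene-rich chromosomes, chromosome 4 was below expectation. It stood at 0.904 in ATRA, 0.958 in TPA and 0.869 in untreated cells with chromosome 17, at 0.962, 0.979 and 0.851 with chromosome 19, and at 0.908, 0.947 and 0.830 with chromosome 22. All 3 pairs were higher in both treated matrices. The median of their log2 changes was 0.13 for ATRA and 0.19 for TPA, against 0.0044 and 0.0011 over all 253 pairs, but with an expectation from chromosome lengths the ATRA median turned to -0.023. Chromosome 18 differed from chromosome 4 in standing above expectation with chromosome 19, at 1.15, 1.14 and 1.04, and with chromosome 22, at 1.08, 1.11 and 1.02. With chromosome 17 it stood at 0.945, 1.002 and 0.95. Chromosome 18 was also above expectation with chromosome 20, at 1.09, 1.23 and 1.12. With chromosome 21, rank 5 from the lowest in genes per Mb of all bins, it stood at 1.16, 1.21 and 1.15. The rank of chromosome 21 over the bins used was not computed. The excess of chromosome 18 was thus not confined to chromosomes 19 and 22. With the 3 gene-rich chromosomes its median was 0.07 higher in ATRA, where chromosome 17 was at -0.0075, and 0.12 higher in TPA, and with an expectation from chromosome lengths the ATRA median turned to -0.091. The gain with gene-rich chromosomes in TPA kept its direction under both expectations, and the one in ATRA did not.

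With gene-poor chromosome 13 and with chromosome X, chromosome 4 was near expectation, at 0.997, 0.955 and 1.01 and at 1.02, 0.977 and 1.05 in ATRA, TPA and untreated cells. Chromosome 18 was at 1.01, 0.964 and 0.988 with chromosome 13 and at 0.972, 0.930 and 0.954 with chromosome X. Against untreated cells in TPA, chromosome 4 was 0.08 lower with chromosome 13 and 0.10 lower with X, and chromosome 18 was 0.04 lower with each, but the median of these 4 pairs turned to 0.044 with an expectation from chromosome lengths. In ATRA the 4 changes ran from -0.04 to 0.03. Among all partners the most raised for chromosome 4 in ATRA were 19, 22 and 16 and the most lowered 18, 7 and 15. In TPA its most raised were 19, 22 and 17 and its most lowered 18, X and 13. For chromosome 18 the most raised in ATRA were 19, 22 and 11 and the most lowered 4, 12 and 20. In TPA they were 19, 20 and 22 and, lowered, 4, 6 and 3. With an expectation from chromosome lengths 19, 22 and 17 were again the most raised for chromosome 4 in TPA, while for chromosome 18 the most raised in TPA became 19, 16 and 21 and the most lowered 6, 4 and 11. In ATRA the order was inverted: 13, 8 and 5 were then the most raised for chromosome 4 and X, 13 and 6 for chromosome 18, and chromosome 17 was the most lowered for both. The treatments share the untreated matrix.

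**Figure D5:**
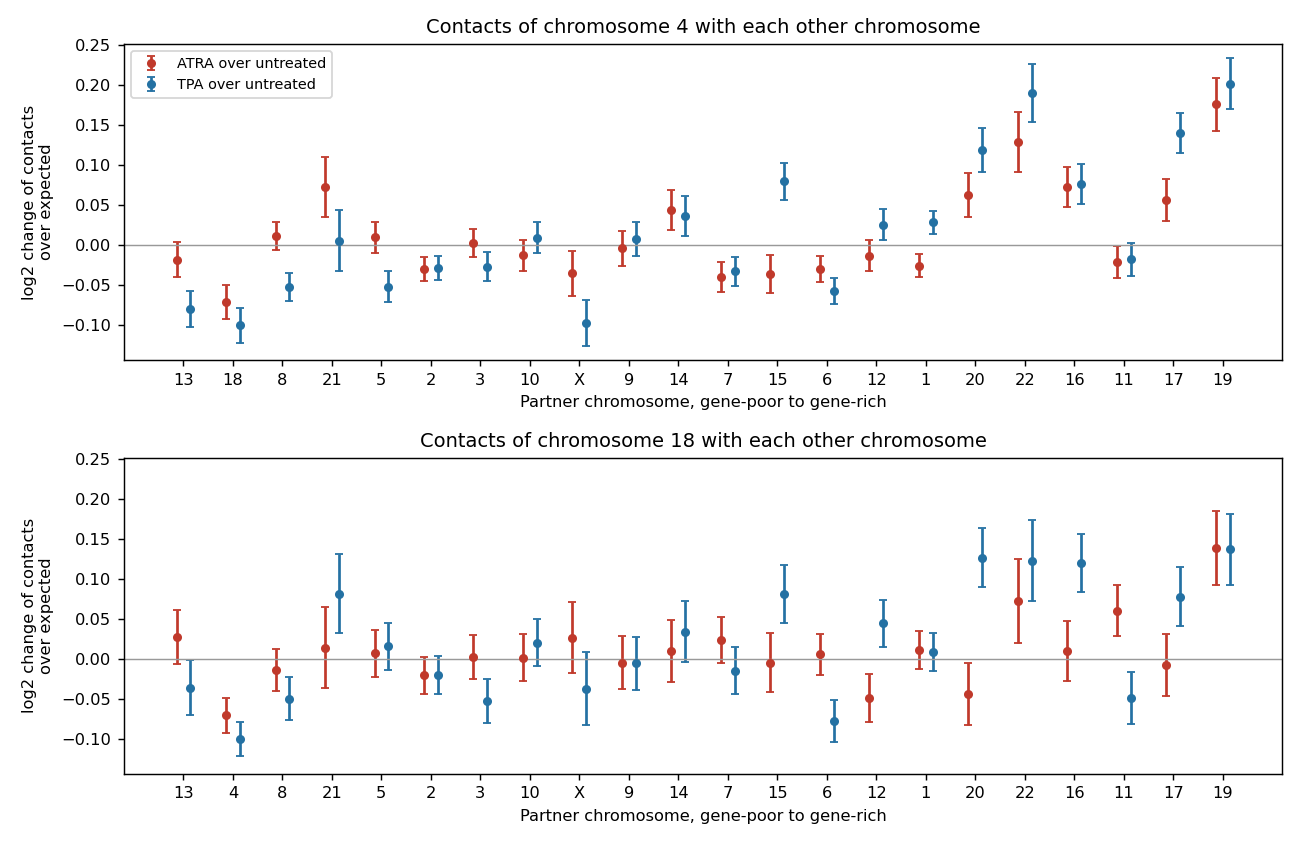
Log2 change of contacts over expected against untreated cells (vertical axis) for ATRA and TPA, for each partner of chromosome 4 (top) and chromosome 18 (bottom), with 95% intervals from counting. Partners are ordered from gene-poor to gene-rich by genes per Mb of all bins. With this fitted expectation the pair of chromosomes 4 and 18 lies lowest, at -0.07 in ATRA and -0.10 in TPA, and chromosome 19 highest, at 0.18 and 0.20 with chromosome 4, whereas an expectation from chromosome lengths turns the ATRA values to 0.06 and -0.0003.

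Shares without any expectation also put chromosome 4 below chromosome 18. Contacts with chromosomes 4 and 18 were left out of every total used for these shares. Of the remaining contacts of chromosome 4 with other chromosomes, 6.21% (6.15 to 6.26) were with chromosomes 17, 19 and 22 in ATRA. In TPA the share was 7.35% (7.29 to 7.40) and in untreated cells 6.60% (6.54 to 6.65). Among the other 20 chromosomes this ranked 1 from the lowest in ATRA, 5 in TPA and 1 in untreated cells. Chromosome 18 gave 7.08% (6.998 to 7.17), 8.31% (8.22 to 8.41) and 7.83% (7.74 to 7.92), ranks 12, 16 and 11. Raw shares were thus lower in ATRA and higher in TPA than in untreated cells on both chromosomes, where the values relative to expectation were higher in both treatments for chromosome 4. This was not particular to them. Each of the other chromosomes outside 17, 19 and 22 was also lower in ATRA. In TPA chromosomes 2, 3, 5, 6, 7, 8, 13 and X were higher as well, with 13 at 7.51% against 6.67% in untreated cells. Chromosomes 1, 9, 10, 11, 12, 14, 15, 16, 20 and 21 were lower in TPA. Within chromosome 18 the short arm gave 7.72%, 8.91% and 9.02%, the long arm before the junction 7.53%, 8.82% and 8.25%, the low block 5.50%, 6.53% and 5.92%, and the end past it 6.43%, 7.71% and 6.87%. The block was the lowest in each matrix, below 4q up to the junction at 6.02%, 7.07% and 6.24% as well, with overlapping intervals in untreated cells only. The short arm of chromosome 4 gave 6.67%, 8.02% and 7.43%.

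Contacts within the chromosomes made up 17.9% (17.8 to 17.99) of those of chromosome 4 in ATRA, 20.8% (20.8 to 20.9) in TPA and 22.7% (22.6 to 22.7) in untreated cells. On chromosome 18 the shares were 13.5% (13.4 to 13.6), 16.5% (16.4 to 16.6) and 18.8% (18.7 to 18.9), rank 22 of 23 from the highest in each matrix. The differences from untreated cells were -4.75 points in ATRA and -1.84 in TPA on chromosome 4, and -5.27 and -2.25 on chromosome 18. All 23 chromosomes were lower in both treatments, with medians of -5.38 and -1.995, so chromosomes 4 and 18 followed the genome.

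Short-range contacts were also fewer in the treated matrices. Among contacts between different bins of chromosome 4, 23.01% lay under 2 Mb in ATRA, 22.7% in TPA and 30.2% in untreated cells, and on chromosome 18 33.4%, 32.8% and 40.8%. The decline with distance from 1 to 10 Mb was shallower, with slopes of -0.95, -0.89 and -1.09 on chromosome 4 and -0.96, -0.98 and -1.11 on chromosome 18. Again all 23 chromosomes went the same way. Contacts between the arms stood at 0.838, 0.820 and 0.830 of the number expected from distance on chromosome 4. On chromosome 18 this ratio was 0.870, 0.830 and 0.962, lower in both treated matrices, with no interval computed. The long arm of chromosome 18 includes the low block, whose part in this ratio was not tested. As a share of contacts between different bins, those between the arms were higher in both treatments. The shares were 17.6% (17.2 to 17.9), 15.9% (15.6 to 16.2) and 14.9% (14.6 to 15.1) on chromosome 18. On chromosome 4 they were 16.3%, 15.8% and 13.99%.

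Single bin pairs at least 1 Mb apart were compared where both matrices together held at least 40 contacts, and called at a 2-fold difference after division by the mean at the same distance. In ATRA, 9 of 626 tested pairs on chromosome 4 were higher and 9 lower, and 4 of 270 on chromosome 18 were higher and 6 lower, against a background of 1.60% higher and 2.43% lower. In TPA, 8 of 745 on chromosome 4 were higher and 21 lower, and 10 of 338 on chromosome 18 were higher and 5 lower, against 1.79% and 2.63%. Shares on the 2 chromosomes were 1.07% to 2.96% and thus near the background.

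The largest single difference in ATRA lay at the very start of chromosome 4, where 0.0 to 0.5 Mb met 1.0 to 1.5 Mb with 24 contacts in ATRA, 36 in TPA and 110 in untreated cells, a log2 ratio of -1.49 (-2.13 to -0.85) in ATRA. It lies within the segment whose coverage was lower in ATRA. The other most lowered pairs in ATRA were 172.0 with 173.0 Mb and 10 with 15.5 Mb on chromosome 4, and 39.5 with 42.0 Mb and 58.0 with 59.0 Mb on chromosome 18 (bin starts), at -1.28 to -1.34 on 8 to 10 contacts in ATRA and 30 to 33 in untreated cells. The most raised in ATRA were 9.0 with 10.5, 72.0 with 76.0, 59.5 with 61.0 and 8 with 11 Mb on chromosome 18 and 78.0 with 82.0 Mb on chromosome 4, at 1.17 to 1.38. All 5 ratios lay on 26 to 42 contacts in ATRA and 15 to 27 in untreated cells.

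In TPA the pair of 145.0 and 146.5 Mb on chromosome 4 was raised most, with 49 contacts in TPA and 18 in untreated cells, a log2 ratio of 1.69 (0.91 to 2.47). The pair of 59.5 and 61.0 Mb on chromosome 18, inside an A run past the block, was raised in both treatments, with 42 contacts in ATRA, 57 in TPA and 27 in untreated cells. Its log2 ratio was 1.34 (0.64 to 2.04) in ATRA and 1.39 (0.73 to 2.05) in TPA, both against the same untreated matrix. The other raised pairs in TPA were 23 with 25 Mb on chromosome 18 and 152.5 with 155.0 and 33.0 with 34.0 Mb on chromosome 4, at 1.36 to 1.42. All 5 most lowered pairs in TPA lay on chromosome 4, at 81.5 with 82.5, 3.0 with 4.5, 18 with 32.5, 95.0 with 96.0 and 39.5 with 41.0 Mb, at -1.70 to -1.44 on 8 to 13 contacts in TPA and 32 to 39 in untreated cells. Such small counts leave wide intervals, and their spread between cultures was not measured.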

How the data were processed

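HL60 chromatin was cut with HindIII, per the labels. The series' design text names Bowtie for alignment and HiCUP for filtering, and the submitters' processing notes name HOMER 4.7 and hg19. The authors deposited raw contact counts between 500 kb bins, per the file headers. Of 6203 bins per matrix, 6083 were used, and those left out held 0.0513% to 0.101% of contacts. Contacts on the diagonal were divided by 2.

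Bins under 0.2 times the median coverage were left out, which kept 5630. Coverage was cut into segments of at least 3 Mb with steps of at least 0.3 (log2). Compartment scores came from matrices balanced in 60 iterations. Pairs of chromosomes were compared with an expectation fitted iteratively to their contact totals. The block of chromosome 18 ran from the junction on, over bins at under 0.3 of expected contacts with the part before it. Intervals are exact Poisson or binomial at 95%, except those of log2 ratios, which are normal approximations from the counts. PCR copies are not independent molecules. The median bin held 3272 contacts in ATRA, 3466 in TPA and 3461 in untreated cells. Only cells above the diagonal were read, since 1 cell of the untreated matrix was not symmetric.

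Regions named are all segments, switches and fixed chromosome pairs, clusters of at least 5 bin pairs, the 3 partners and 5 bin pairs most raised or lowered. The chromosomes, regions and lists were chosen with earlier results of these data known. Gene counts per chromosome came from a RefSeq table of another build, used only for those counts. Genes were not placed in bins and no sequence is shown, since no hg19 annotation was used here. Scripts ran in Python 3.11.15 with NumPy 2.4.6 and SciPy 1.17.1 and were tested on simulated data.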

Additional observations from a re-analysis of the deposited data

How the results depend on the processing

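No paired analysis was possible because the libraries of untreated cells and of TPA are pooled in 1 matrix each, and leaving out a library was not done for the same reason. The causes of the differences below were not tested. Depth limits single bin pairs and single bins most, and sums over segments or chromosomes least.

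With contacts between chromosomes only, the log2 coverage of the lowest segment of chromosome 18 was -0.64 in ATRA, -0.67 in TPA and -0.66 in untreated cells, against -0.81, -0.86 and -0.83. The join stood at 16.9, 24.2 and 25.5 times expected with the mean of the chromosome pair as expectation. At 20 times expected as the minimum it stood at 27.9, 34.0 and 42.5, since fewer and stronger pairs enter (29 bin pairs), and at 5 times at 27.6 in untreated cells. With a distance expectation from all contacts of a bin, chosen after the data were seen, chromosome 18 before the junction met the block at 0.176, 0.124 and 0.137 of expected.

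Switches from A to B on both chromosomes numbered 1 in ATRA and 3 in TPA, and from B to A 0 and 1. Without correction for coverage these were 0 and 6, and 0 and 8. Per arm they were 2 and 6, and 1 and 3. From contacts between chromosomes, and at 1 SD, all were 0. At 0.3 SD they were 6 and 10, and 0 and 5. With total contacts thinned to those of the shallowest matrix, which leaves contacts within chromosomes unequal, they were 0 and 4, and 0 and 2. With the block left out, chosen after the data were seen, they were 2 and 5, and 0 and 2.

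An expectation from chromosome lengths reversed the ATRA medians with chromosomes 17, 19 and 22, to -0.023 for chromosome 4 and -0.091 for chromosome 18, and the TPA median with 13 and X, to 0.044. That of ATRA with 13 and X was 0.16 in place of 0.00. Single pairs that reversed were, in ATRA, 4 with 17 (-0.032), 18 (0.061), 19 (-0.00030), 22 (-0.023) and X (0.12) and 18 with 19 (-0.049) and 22 (-0.091), and in TPA 4 with 13 (0.035) and 18 with 13 (0.085). The pair of 4 and 18 stood at 1.58 in ATRA and 1.51 in TPA with that expectation. Without the bins of joined clusters it stood at 1.26, 1.21 and 1.30, and with the pair left out of the fit, chosen after the data were seen, at 1.52, 1.479 and 1.6.

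With bins at least 1 Mb apart only, the share within the chromosome differed from untreated cells by -2.77 points in ATRA and -0.31 in TPA on chromosome 4, and by -3.06 and -0.82 on chromosome 18, and the share under 2 Mb by -4.24, -3.83, -4.92 and -4.78. Without the bins of joined clusters the share within differed by -5.17 on chromosome 4 and -5.44 on chromosome 18 in ATRA. Bin pairs raised and lowered in ATRA numbered 105 and 152 at a minimum of 20 contacts, 0 and 1 at 80, and 90 and 77 at 1.5-fold, against 13 and 15. In TPA they numbered 167 and 195, 3 and 4, and 96 and 117, against 18 and 26. In all, 59 further values of whole comparisons and 70 of single pairs kept their direction and moved by less than their counting interval, or by less than 1.5 times for counts, and 13 values of single pairs or clusters moved by more, some of them across 0 from a starting interval that held 0.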
